A study of Mus musculus with 10 samples.

Results

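Ventricular RNA pooled from 20 mouse hearts was compared with RNA from single hearts on the same type of array. The 3 arrays whose labels mark the extract as pooled, 1 for each genotype, were set against the 7 arrays that each carried 1 heart, and together these were all 10 arrays of the series. The study followed the onset of a milder and a stronger cardiac hypertrophy. Its genotypes were 2 lines carrying an alpha-tropomyosin transgene, alpha-TM175 (2 single hearts, 1 pool) and alpha-TM180 (3 single hearts, 1 pool), and nontransgenic controls, NTG (2 single hearts, 1 pool). No animal was treated, and the transgene promoter, the ages and the sexes are not given in the sources used here. Of these lines TM180 is known for the stronger disease. All extracts went through the same Trizol and column purification according to the labels. Whether the single hearts were part of the pools is not stated in the labels, which name no extraction, labelling or scanning batch. A batch that the 3 pools shared, a difference in the sexes of the hearts and the pooling itself therefore cannot be told apart. The p-values measure the spread between these extracts. In whole tissue, fewer cells of a type and less RNA per cell cannot be told apart either.

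A pool averages the hearts that enter it, so variation from animal to animal is smaller between pools than between single hearts. Arrays of this kind are read by priming at the poly(A) tail and carry several probe sets for many genes. Probe sets of 1 gene can report different stretches or different mature forms of its RNA, and some report unspliced or nuclear transcripts. The array also carries control probe sets along the beta-actin (Actb) and Gapdh messages, for 18S ribosomal RNA and for the B1 and B2 repeats, short interspersed elements that lie in introns and untranslated regions of very many transcripts.

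Intensities are on a linear scale, log2 differences are pooled minus single with genotype in the model, and a probe set was called when its adjusted p was under 0.05. Median intensities of the 10 arrays lay between 66.6 and 70.9. All extracts carried the defining transcripts of ventricular muscle, with Myh6, the adult cardiac myosin heavy chain, between 6868 and 9210 on its bright probe set. Pools scored 30.1 to 39.8 and single hearts -31.6 to 2.65 on the leading principal component (47.4% of variance). Xist, which coats the inactive X, was at 988 in TM175 single heart 1 and 99.5 to 136 in the other 6 single hearts. The Y-linked Eif2s3y read 7.23 in that heart and 44.7 to 60.8 in the others. The pools read 414 (TM175), 394 (TM180) and 149 (NTG) for Xist and 38.3, 35.3 and 46.7 for Eif2s3y. Xist was above the 6 low single hearts in every pool and below the highest heart, with Eif2s3y present in all pools. Neither of these probe sets was called (Xist log2 difference 0.86 ± 0.48 SE, adjusted p = 0.209), though without TM175 single heart 1 the Xist value was 1.30 (adjusted p = 0.00415). Of 2 dimmer Xist probe sets, 1 was called higher (2.10 ± 0.54, adjusted p = 0.0175), with 212, 290 and 63.0 in the pools and 20.6 to 219 in the single hearts, and the other was not (0.39, adjusted p = 0.0858).

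The pools differed from the single hearts at 5013 of 22626 probe sets (22.2%), of which 2263 were higher (10.0%) and 2750 lower (12.2%). The 2 directions differed in size. At least 2-fold differences were called for 374 probe sets higher in the pools and 15 lower, and at least 4-fold differences for 85 and 4. In 1605 probe sets (7.09%) all 3 pools lay above all 7 single hearts and in 1784 (7.88%) all 3 lay below, and of the 374 at least 2-fold higher sets 357 had no value of 1000 or more that needed repair. The median log2 difference of all probe sets was -0.05, and 4992 of the 5013 called probe sets differed in the same direction in all 3 genotypes. A difference of the pool effect between genotypes was called for 0 probe sets (0%) by limma's interaction test, with 815 at an unadjusted p under 0.05, and for 1 with an intensity trend and robust fitting. The number called fell to 2049 without the TM180 pool, 2142 without the TM175 pool and 2715 without the NTG pool. The at least 2-fold higher sets numbered 350 to 408 when any 1 array was left out.

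**Figure D1:**
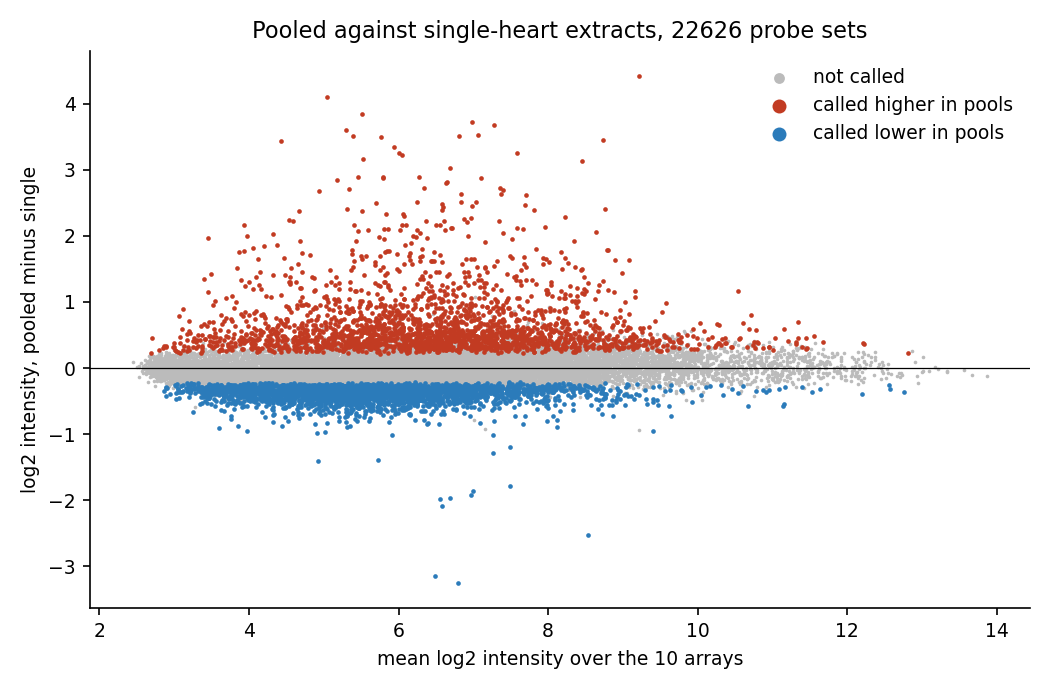
Each of 22626 probe sets is a point, with its mean log2 intensity over the 10 arrays on the horizontal axis and its log2 difference, pooled minus single, on the vertical axis. Red points (2263) were called higher in pools and blue points (2750) lower. The red points reach 4.42, while few blue points pass -1.

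The largest rise was on a probe set of Actb, the cytoplasmic actin of non-muscle cells. It read 4555 (TM175), 5325 (TM180) and 5185 (NTG) in the pools and 152 to 350 in the single hearts (median 243). The pools lay 21.4-fold higher (95% interval 15.4 to 29.8, adjusted p = 6.61e-08), with no overlap. A probe set of Golga4, a protein that tethers vesicles at the Golgi, read 750, 681 and 446 in the pools and 44.7 to 62.8 in the single hearts (median 56.0). That was an 11.4-fold difference (9.51 to 13.7, adjusted p = 3.39e-09), and it rested on values that needed no repair. Zbtb20, a zinc finger repressor, read 869, 830 and 623 against 48.7 to 69.4 (median 61.0, 13.2-fold). Csnk2a1, the catalytic subunit of casein kinase, read 241, 209 and 234 against 16.7 to 22.03 (median 18.0, 12.2-fold). On all 4 of these probe sets every pool lay above every single heart, whatever the genotype.

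The other 8 of the 12 largest rises ran from 9.34-fold to 12.7-fold. Sfpq, a splicing and paraspeckle protein, read 282, 235 and 186 in the pools and 17.9 to 24.3 in the single hearts (11.4-fold). Bptf, the largest subunit of a nucleosome remodeller, read 358, 349 and 235 against 26.1 to 35.4 (10.1-fold). Rbfox2, a splicing regulator active in heart, read 269, 367 and 308 against 25.5 to 42.1 (9.56-fold). These pools again lay far outside the range of the single hearts. Luc7l2, a component linked to the U1 snRNP, was 9.34-fold higher on its probe set with the smallest p and 11.3-fold on another, Pik3r1, the regulatory subunit of PI3 kinase, 10.8-fold, and Tns1, a focal adhesion protein, 10.9-fold. Rgs5, a regulator of G protein signalling typical of pericytes, read 1135, 911 and 814 against 52.4 to 137 (9.503-fold). A dim probe set of Myh6 stood apart from the other rises by its spread between hearts. It read 10.4 and 167 in the TM175 hearts, 217, 148 and 9.16 in the TM180 hearts and 280 and 69.0 in the NTG hearts, and 509, 952 and 1623 in the pools. Its difference of 12.7-fold had an interval of 3.03 to 53.5 (adjusted p = 0.0185), and the call was lost without any 1 of the 3 pools (adjusted p = 0.082, 0.0966 and 0.0691 without the TM175, the TM180 and the NTG pool).

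**Figure D2:**
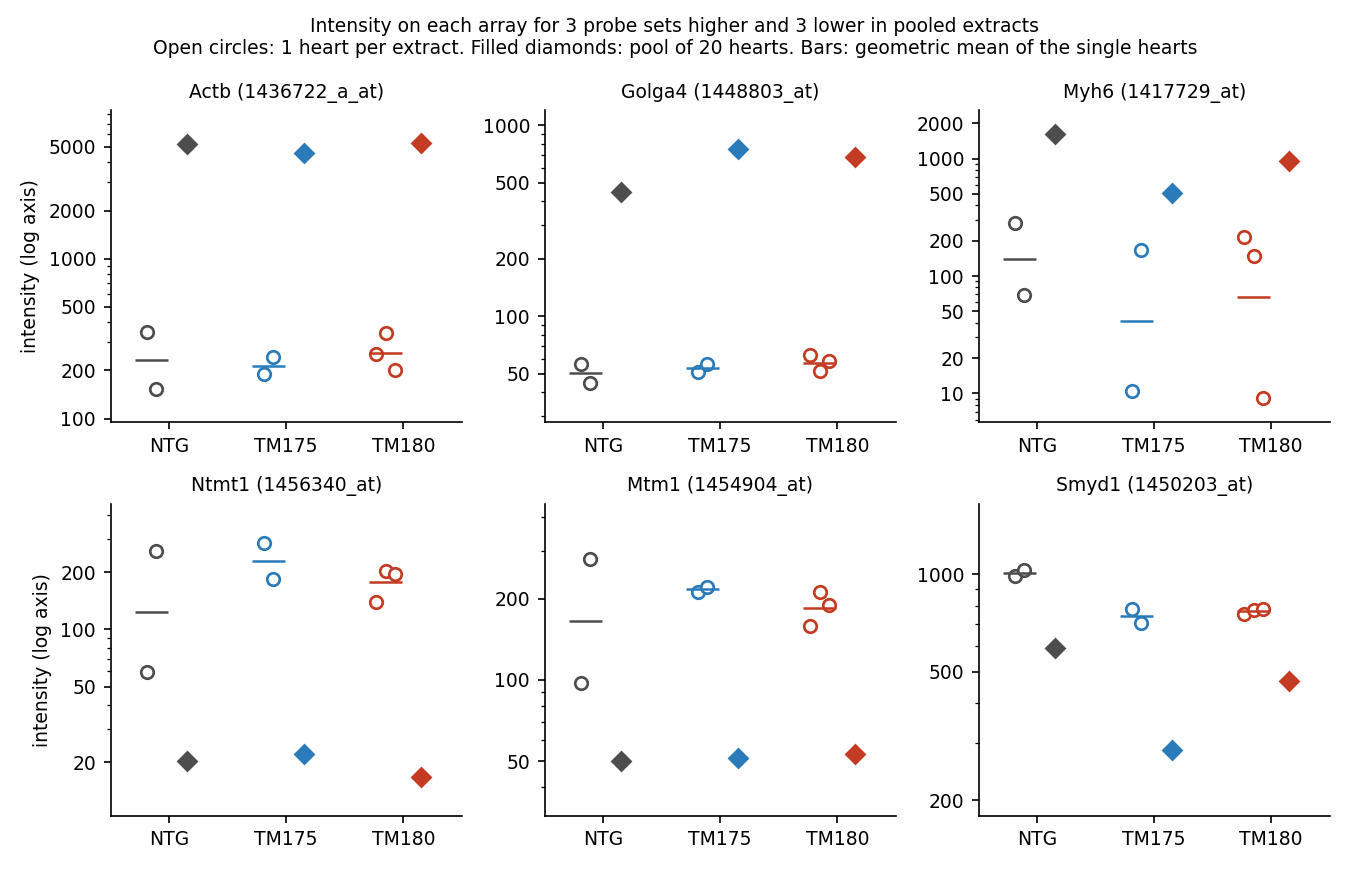
Intensity on each of the 10 arrays (vertical log axis) by genotype for Actb, Golga4 and Myh6 probe sets that were higher in pools and Ntmt1, Mtm1 and Smyd1 probe sets that were lower. Open circles are single hearts, filled diamonds are pools of 20 hearts, and bars are geometric means of the single hearts. In each panel every pool lies outside the range of the 7 single hearts.

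Falls of at least 2-fold were fewer than rises of that size (15 against 374), although more probe sets were called lower than higher in all. Ntmt1, which methylates the amino terminus of proteins, read 22.1, 16.7 and 20.2 in the pools and 59.8 to 286 in the single hearts (median 196). The pools were 8.84-fold lower (log2 difference -3.15 ± 0.34 SE, adjusted p = 7.05e-05), and within the NTG group the hearts read 59.8 and 258. The other, on average brighter Ntmt1 probe set was not called (0.16, adjusted p = 0.373), with 146, 164 and 161 in the pools and 110 to 182 in the single hearts. Mtm1, the phosphoinositide phosphatase myotubularin, read 51.3, 53.3 and 50.2 against 97.1 to 281 (median 211, log2 difference -1.86 ± 0.24, adjusted p = 0.000259). A second Mtm1 probe set fell by 1.78 and the remaining, dimmer one did not pass (-0.07). Smyd1, a methyltransferase of striated muscle needed for sarcomere assembly, read 287, 468 and 590 against 709 to 1033 (median 778, log2 difference -0.95 ± 0.11, adjusted p = 0.000117). A second Smyd1 probe set was called lower by 0.62 with overlap, and the dimmest was not called (-0.21, adjusted p = 0.114). On the first probe set given for each of these 3 genes the lowest single heart was above the highest pool. Bzw2, a regulator of translation start (-1.29), Bcat2, the mitochondrial branched-chain aminotransferase (-1.01), Hnrnpl, a splicing repressor (-0.85), and Ccnk, a cyclin of transcription elongation (-0.85), were also among the 12 largest non-overlapping falls. The other, brighter Bzw2 probe set was called in the opposite direction (0.26 ± 0.08, adjusted p = 0.0322). The list was completed by Psg28, a pregnancy-specific glycoprotein (-1.39), the vomeronasal receptor Vmn1r148 (-1.99), the olfactory receptor Olfr17 (-0.90) and the RIKEN transcripts 3010003L21Rik (-0.98) and 4930571B16Rik (-0.88). Of the 15 probe sets at least 2-fold lower, 7 had no gene symbol in the annotation and 1 had several.

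Many rises were on 1 probe set of a gene while brighter probe sets of the same gene were not called. Golga4 had 3 probe sets, and the brightest read 801, 1010 and 786 in the pools and 778 to 1120 in the single hearts. Its log2 difference was -0.01 and that of the middle one -0.04, beside 3.52 on the dimmest. Rgs5 gave 0.07, -0.02, 3.25 and 0.95 on its 4 probe sets from brightest to dimmest in single hearts. The 5 other probe sets of Csnk2a1 lay between -0.18 and 0.36 and the 3 others of Rbfox2 between -0.15 and 0.07, and none of them passed. Hsp90aa1, the inducible cytosolic chaperone, gave 0.02 and 0.13 on its bright probe sets and 2.63 (adjusted p = 2.28e-07) on the dim one. For Actb the other probe set read 502, 292 and 361 in the pools and 296 to 1626 in the single hearts, and its log2 difference of -0.94 did not pass (adjusted p = 0.153). The bright Myh6 probe set gave -0.12 (adjusted p = 0.268) beside 3.67 on the dim one. Malat1, an abundant RNA retained in nuclear speckles, gave 0.04 on its brightest probe set and 2.34, 2.08, 0.75 and 0.52 on its 4 others, all of which passed. Other genes among the largest rises had their brightest probe set called higher too. It gave 1.48 in Zbtb20, 1.63 in Tns1, 0.58 in Pik3r1 and 0.92 in Bptf.

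Among the 4956 genes with at least 2 probe sets, 262 had 1 or more that was at least 2-fold higher in the pools. In 218 of the 262 another probe set was not called, in 24 another was called lower, and in 41 all were called higher. The brightest probe set was at least 2-fold higher in 54, and the brightest had a median log2 difference of 0.18 against 1.43 for the largest. The 548 remaining probe sets of these genes were called higher in 30.1% and lower in 4.74%, beside 10.0% and 12.2% of all probe sets. Since the genes were picked by their highest probe set, these figures describe the genes and test nothing. Of 600 genes with 2 or more called probe sets, 116 had calls in both directions. In Taok1, a kinase of the MAP kinase cascade, the largest rise was 2.80 and the fall was -0.28. In Stat3, the transcription factor downstream of cytokine receptors, they were 2.29 and -0.34, and in Norad, a noncoding RNA that binds Pumilio proteins, 1.81 and -0.34. The probe sets of 1 gene spanned more than 1 on the log2 scale in 286 genes for pooled against single extracts and in 10 genes for TM180 against NTG in the same model. Probe positions along the transcripts were not analysed here.

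**Figure D3:**
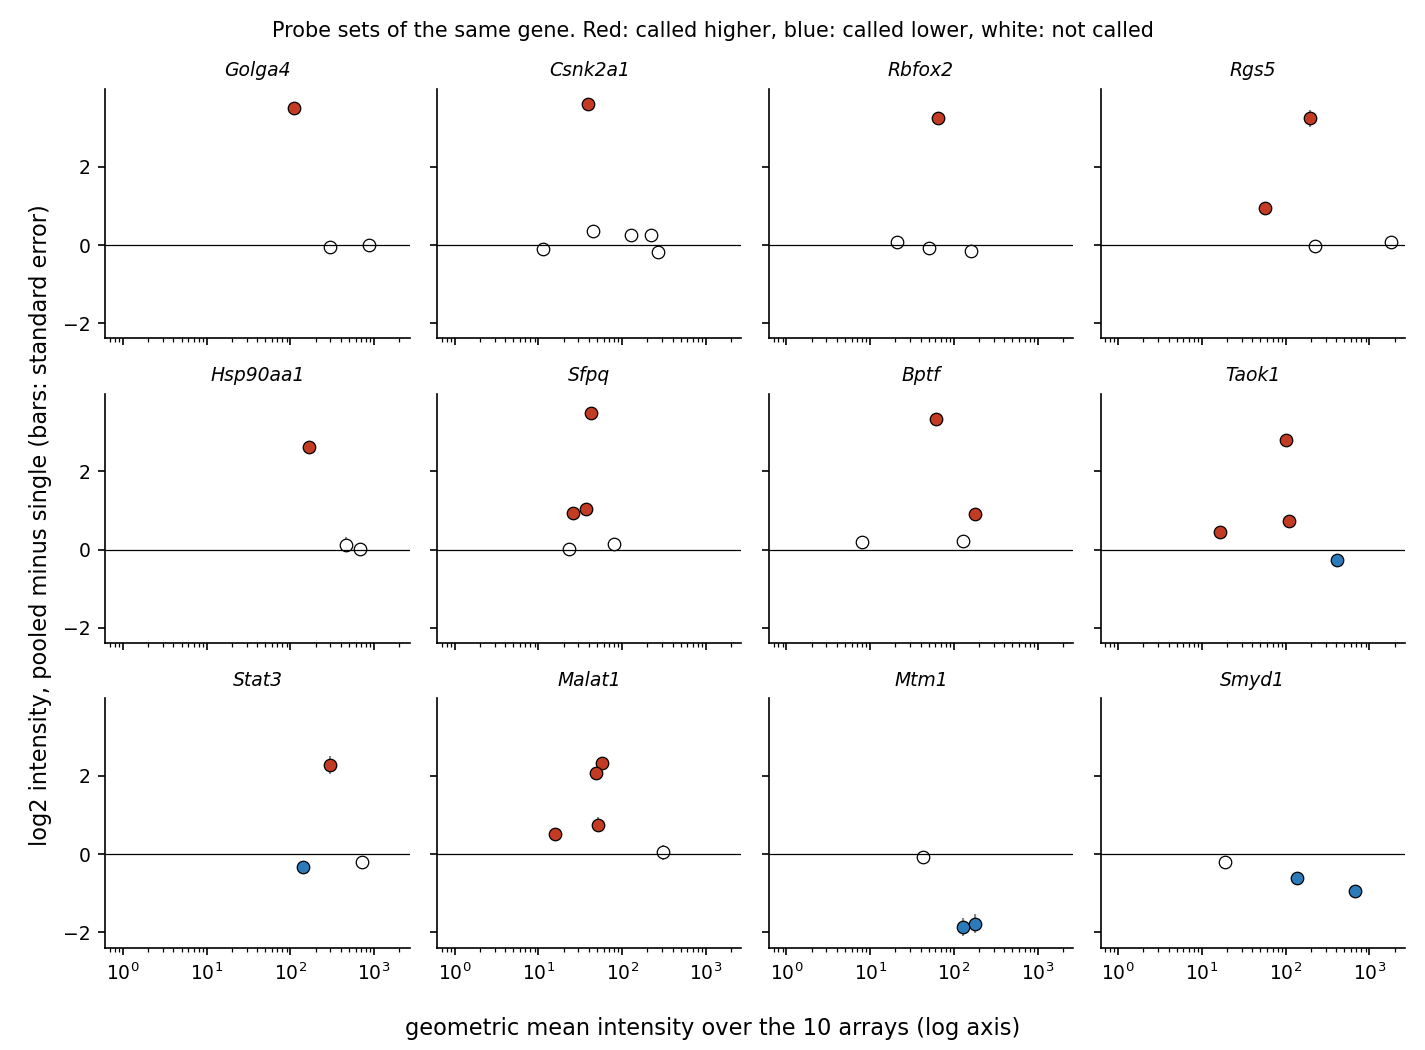
Each panel is 1 gene and each point 1 of its probe sets, with geometric mean intensity over the 10 arrays on the horizontal log axis and the log2 difference, pooled minus single, with its standard error on the vertical axis. Red points were called higher, blue points lower, and white points were not called. In Golga4, Csnk2a1, Rbfox2 and Hsp90aa1 a single point stands above 2.5 and the others lie near 0.

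Among the array's own control probe sets, those for Actb, the repeats and ribosomal RNA were higher in the pools. Actb controls near the 3′ end read 3451, 3994 and 2998 in the pools and 801 to 1337 in the single hearts, a 3.55-fold difference. Those in the middle of the message were 10.2-fold higher and those at the 5′ end 3.24-fold. All 3 gave an exact permutation p of 0.0278 (two-sided, pools exchanged with single hearts within genotype), the smallest that the 36 arrangements allow, and 0.048 after Benjamini-Hochberg adjustment over 19 mouse controls. The Gapdh controls did not pass, at 1.03-fold (3′), 1.03-fold (middle) and 1.07-fold (5′). The 3′ Gapdh value was 5848, 6003 and 6054 in the pools and 5088 to 6136 in the single hearts, which overlapped. The B1 repeat read 3090, 2770 and 2178 in the pools and 623 to 1492 in the single hearts (2.81-fold). The 2 B2 repeat probe sets were 1.70-fold and 1.57-fold higher, and the 18S ribosomal RNA ones 1.81-fold (3′), 1.88-fold (middle) and 1.30-fold (5′), each at the same smallest p. The 3′ probe set of the transferrin receptor Tfrc was 1.38-fold higher at that p, with the TM175 pool (28.1) inside the single hearts (21.7 to 29.7), and the 5′ one of pyruvate carboxylase was 0.863-fold.

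The distance between 3′ and 5′ signal, a common gauge of RNA integrity, overlapped between the extracts. For Actb the log2 difference between the 3′ and 5′ controls was 0.58, 0.57 and 0.50 in the pools and 0.29 to 0.58 in the single hearts, and the pools exceeded the single hearts by 0.13 (exact permutation p = 0.167). For Gapdh the shift was -0.06 (exact permutation p = 0.556). Bacterial and phage control sequences spiked into each hybridisation were read by 18 probe sets, several of them for the same spiked RNA. All 18 had log2 differences under 0, from -0.43 to -0.02 (median -0.19). In none did all 3 pools lie beyond all single hearts. Single pools did on some of these probe sets, such as the TM180 pool at 478 against 550 to 928 on 1 of them. Among the single hearts the B1 repeat was lowest in NTG heart 2 (623), TM175 heart 1 (670) and TM180 heart 3 (725) and 1072 to 1492 in the other 4, and the dim Myh6 probe set was lowest in the same 3 hearts. Their part in the other results was not tested.

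Probe sets of genes with long genomic spans held more of the large rises. Probe sets with 1 gene symbol were ranked by the genomic length of their gene in the RefSeq annotation. They were cut into 5 bins of like size, so that genes with several probe sets counted more than once. The median was 4.12 kb in the shortest and 120 kb in the longest bin. The share of probe sets at least 2-fold higher in the pools was 0.565% in the shortest bin and 0.737%, 1.03%, 2.43% and 3.83% in the following ones. Calls higher in pools went from 4.98% to 15.8% and calls lower from 14.1% to 10.9%. Within the 2 brightest of 5 intensity bins the at least 2-fold share went from 0.615% to 5.21%. By intensity alone the median log2 difference was -0.08 and -0.11 in the 2 dimmest bins and 0.05 in the brightest. Probe sets without a gene symbol were called lower in 18.3% and higher in 7.59%. These shares are descriptions, since probe sets of 1 gene share their source.

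For gene groups the brightest probe set of each gene was used. Over all 12393 genes the median log2 difference was -0.07, with 6.55% called higher and 13.6% lower, and each list is given beside these values. Most members differed little. Of 173 called probe sets named by rule, 71 kept the call under all 12 alternatives tried on them. The other 102 lost it under at least 1, mostly without a pool. These 12 were median centring, the mean of within-genotype differences and leaving out each array. The other alternatives, such as replicate number as a block or no genotype term, were not tried on named probe sets. Members given with values below kept the call under all 12 unless said otherwise or not called. The smallest count of every list came with a pool left out, in several lists tied with a single heart left out, such as tRNA synthetases and histones.

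Splicing factors and ribosomal proteins were called higher more often than lower. Among 59 splicing factors 10 were higher and 2 lower (median 0.13). Prpf38b, a component of the activated spliceosome, was higher by 0.49 ± 0.08, while Prpf40b, an early splice site factor, fell by 0.41. Among 49 cytosolic ribosomal proteins 7 were higher and 1 lower (median 0.18), led by Rpl22l1, a paralogue of Rpl22, which read 335, 295 and 298 in the pools against 185 to 237 (0.59 ± 0.10, adjusted p = 0.00159). In the RNA decay list 5 of 31 were higher and 1 lower (median 0.04). Cnot6l, a deadenylase of the CCR4-NOT complex, read 555, 628 and 513 against 140 to 240 (1.65 ± 0.13), and Xrn2, the nuclear exonuclease, rose by 0.74. Mrpl16 of the mitochondrial ribosome (1.28 ± 0.12) and Iars, the isoleucine tRNA synthetase (0.56 ± 0.11), were higher too, and Eif4ebp2, a repressor of cap-dependent translation, fell by 0.73. These counts depended on single arrays. Ribosomal proteins called higher numbered 1 without the TM175 or the TM180 pool and 19 without NTG single heart 1, and splicing factors called higher numbered 1 without the NTG pool.

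Chromatin and zinc finger lists held single large rises. Kmt2c, a histone H3 lysine 4 methyltransferase, read 248, 171 and 162 in the pools and 37.5 to 44.3 in the single hearts (2.17 ± 0.10, adjusted p = 4.94e-08). Smarcc1, a core subunit of the BAF remodeller, rose by 1.11 and Kdm6a, the X-linked H3K27 demethylase, by 1.33. The part that the sexes of the hearts have in the Kdm6a value was not tested. Chd1, another remodeller, fell by 0.43. Of 49 chromatin regulators 9 were higher and 3 lower, with a median of 0.03 that turned negative without the TM175 pool (-0.03), TM175 single heart 1 or NTG single heart 2. Of 167 zinc finger genes 18 were higher and 18 lower (median -0.00). Zfp148, a factor that binds GC-rich promoters, read 381, 417 and 465 against 66.1 to 95.9 (2.46 ± 0.11), and Zfp24, Zfp62 and Zfp52 rose by 0.94, 0.72 and 0.72. Tnpo3, the importer of splicing factors, was higher by 0.82 among 36 genes of the nuclear pore and transport, of which 6 were higher and 2 lower. In the proteasome list 5 of 46 were higher and none lower (median 0.03), with Psmd7, a lid subunit, at 0.86. The 132 ubiquitin ligases and deubiquitinases split 11 to 11. Chromatin genes called higher numbered 3 without the TM175 or the TM180 pool, nuclear pore genes 1 without the NTG pool and proteasome genes 1 without the TM180 pool.

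On the brightest probe set of each gene, vascular and stromal markers were called in 1 direction only. Over all their probe sets, 7 were called higher and 3 lower for fibroblasts, and 6 and 1 for smooth muscle and pericytes. Endothelial (7 higher) and matrix probe sets (18 higher) had none lower. Of 24 endothelial markers 4 were called higher and none lower (median 0.21). Flt1, a receptor for vascular endothelial growth factor, read 507, 397 and 410 in the pools and 171 to 237 in the single hearts (1.11 ± 0.08, adjusted p = 1.22e-06). Among 22 fibroblast markers 5 were higher and none lower (median 0.17), and among 42 extracellular matrix genes 7 and none (median 0.10). Ddr2, a collagen receptor of fibroblasts, was higher by 0.76 ± 0.08 and Dcn, the matrix proteoglycan decorin, read 3686, 3987 and 3058 against 1909 to 2848 (0.69 ± 0.09). Col8a1, a short-chain collagen, read 388, 406 and 146 against 46.8 to 78.7 (2.22 ± 0.23), so that the NTG pool was lower than the transgenic ones. Nid1, a basement membrane protein, was higher by 0.50. The matrix list had 30 of 42 members called higher in TM180 against NTG, with a median of 0.89, in the same model and from the same arrays. Endothelial markers called higher numbered 1 without the TM175 or the TM180 pool, and their median was 0.07 without the TM175 pool. Fibroblast markers called higher numbered 2 without the TM175 or the NTG pool and matrix genes 3 without the TM175 pool. Smooth muscle and pericyte markers had 2 of 17 called higher (median 0.07).

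On the brightest probe set of each gene, no marker of blood cells or of organs other than the heart was called higher. Over all probe sets, 2 were higher and 3 lower for red blood cell genes, and 1 and 4 for thymus genes. On the brightest probe sets, several lists had more members called lower than the 13.6% of all genes. Of 14 neutrophil markers 6 were called lower and none higher (median -0.29), of 20 T and NK cell markers 8 and none (-0.21), of 11 liver genes 4 and none (-0.24), and of 11 lung epithelial genes 4 and none (-0.19). Red blood cell genes (3 of 14 lower, -0.17), platelet genes (2 of 11, -0.20), B cell genes (1 of 11, -0.22) and thymus genes (3 of 7, -0.19) had smaller counts. The median intensity of these lists ran from 39.9 to 91.6, beside 90.8 for all genes. Over all probe sets the share called lower changed with intensity. From the dimmest to the brightest of 5 intensity bins it was 12.4%, 18.6%, 15.5%, 9.22% and 5.06%. The median intensities of these lists fell in the bins with 18.6% and 15.5%. The part that intensity has in the counts of these lists was not tested. Selp, the P-selectin of platelets and endothelium, read 73.5, 82.9 and 86.2 in the pools and 105 to 148 in the single hearts (-0.63 ± 0.11, adjusted p = 0.00291), and Trbv13-2, a T cell receptor segment, was lower at -0.56 ± 0.09. Laptm5, a lysosomal protein of leukocytes, read 157, 166 and 131 against 175 to 242 (-0.41 ± 0.09), while the macrophage list had a median of -0.01 with 2 of 22 lower. Albumin (Alb), the defining transcript of liver, read 49.9, 41.3 and 52.1 in the pools and 50.5 to 73.9 in the single hearts (-0.39 ± 0.11, adjusted p = 0.0259), a call lost without the TM175 pool, the TM180 pool or TM175 single heart 1. Hba-a1, alpha globin, read 21.6 to 26.2 in the pools and 23.8 to 30.1 in the single hearts (-0.16, adjusted p = 0.147). That is 1 dim probe set, and probe sets carrying several gene symbols were not used for genes. Whether it reports the blood content of the extracts was not tested. Neutrophil genes called lower numbered 1 without the TM175 pool, and T and NK cell genes 2 and liver genes 0 without the TM175 or the TM180 pool.

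Olfactory, vomeronasal and taste receptors, which serve smell and taste, were called lower too. This list was added after 2 of its members appeared among the largest falls. Of 66 receptors 41 were called lower and none higher, with a median of -0.41 and a median intensity of 34.5. Tas1r2, a sweet taste receptor, read 52.2, 45.0 and 46.3 in the pools and 60.0 to 77.1 in the single hearts. Olfr544 and Olfr480 fell by 0.49 and 0.72. The number called lower was 14 without the TM175 pool and 48 without NTG single heart 1. The part that low intensity has in these falls was not tested.

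**Figure D4:**
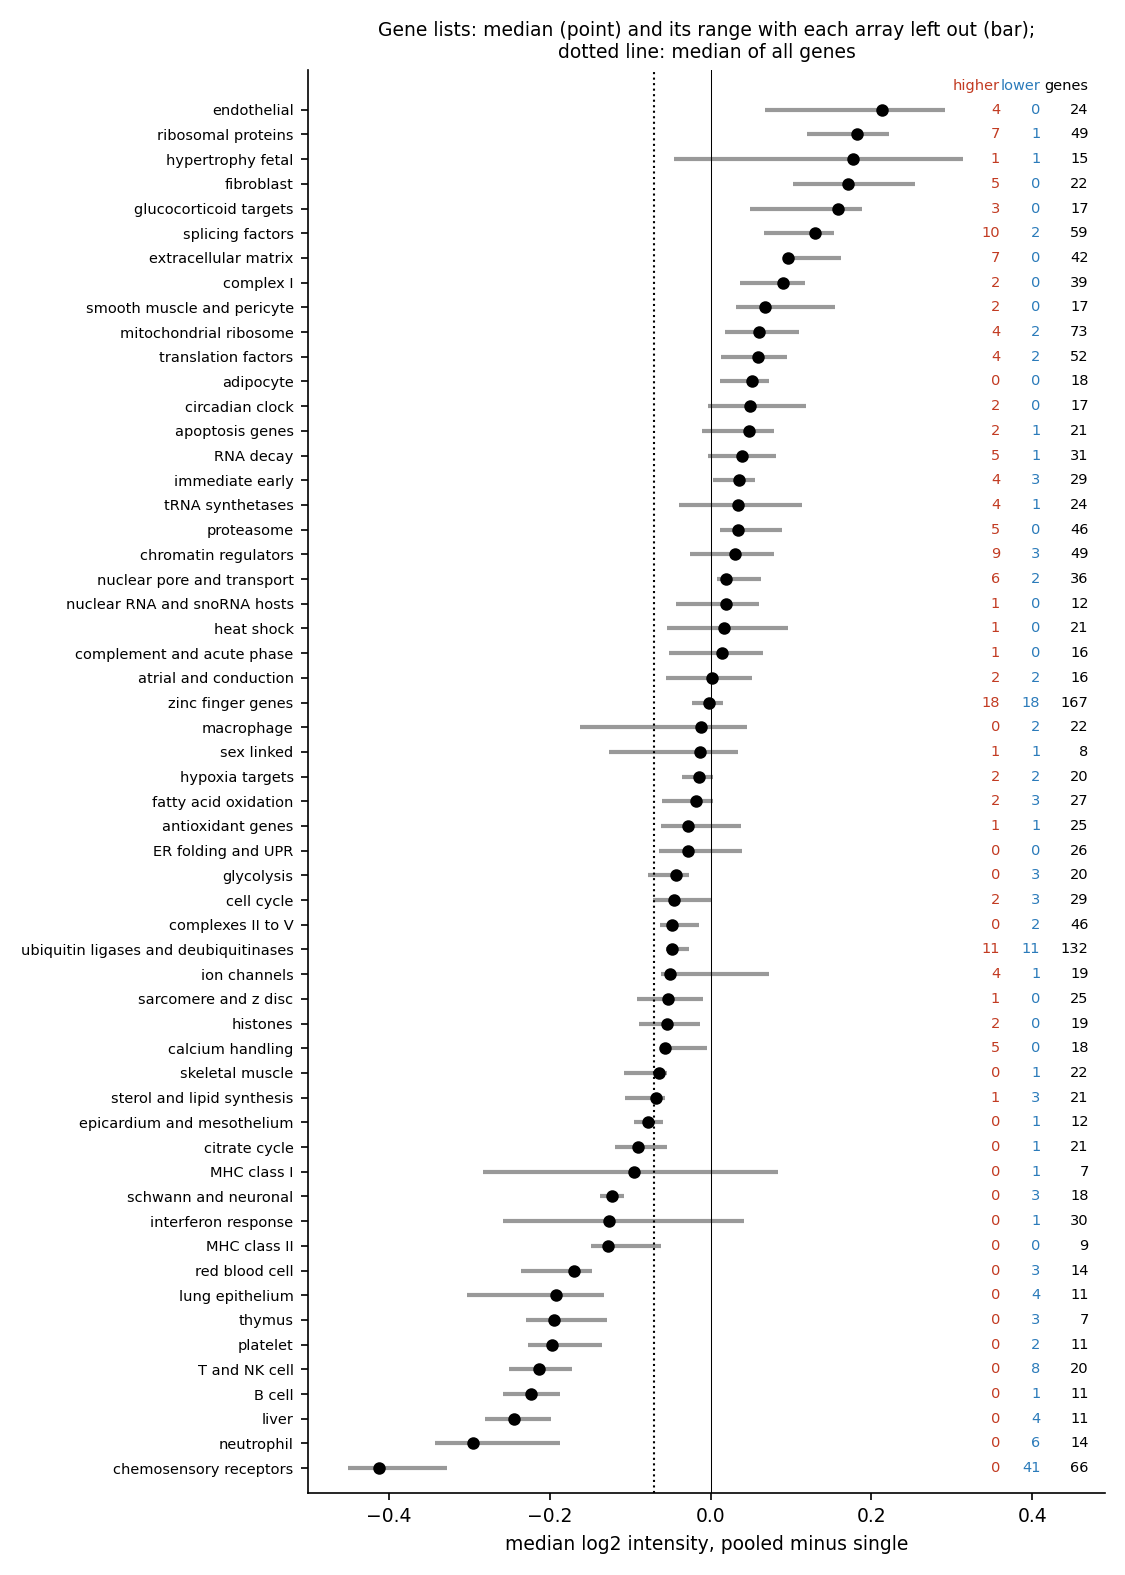
Median log2 difference, pooled minus single, of each of 56 gene lists (points), with the range of that median when each array was left out (grey bars). The dotted line is the median of all 12393 genes (-0.07). Numbers at the right give members called higher, called lower and measured; endothelial and ribosomal lists lie highest and chemosensory receptors lowest.

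Few metabolic and contractile genes were called. The 46 subunits of respiratory complexes II to V had a median of -0.05 with 2 lower. The 39 of complex I had 0.09 with 2 higher and the 21 citrate cycle genes -0.09 with 1 lower. The glycolysis list of 20 genes had a median of -0.04 with 3 lower, Pkm, Ldhb and Pigq. Pigq, a gene of GPI anchor synthesis, is not a glycolytic enzyme, so this list held at least 1 gene from outside the pathway. Fatty acid oxidation had 2 of 27 higher and 3 lower (median -0.02). Its outlying member was Ppara, the nuclear receptor that drives this pathway, which read 385, 342 and 477 in the pools and 45.4 to 75.3 in the single hearts (2.81 ± 0.11, adjusted p = 7.1e-09). Hadhb, a subunit of the trifunctional enzyme of that pathway, read 3417, 3531 and 4902 against 4202 to 5878 (-0.40 ± 0.10, adjusted p = 0.0148), a call lost without the TM175 or the TM180 pool. In the sarcomere list 1 of 25 was higher (median -0.05), and among 18 calcium handling genes 5 were higher and none lower (median -0.06). The calcium genes called were Cacnb2, Slc8a1, Camk2d, Jph2 and Trdn, and the count was 1 without the NTG pool. Cacnb2, a beta subunit of the L-type calcium channel, read 56.3, 82.4 and 166 against 42.0 to 76.7 (0.78 ± 0.15, adjusted p = 0.00403), so that the TM175 pool lay within the single hearts. Among 19 ion channel genes 4 were higher and 1 lower (median -0.05, and 0.07 without the TM175 pool). Clcn3 and Hcn2, a chloride and a pacemaker channel, rose by 0.93 and 0.56. The related pacemaker channel Hcn3 was the lower one (-0.41 ± 0.09, adjusted p = 0.00991), a call lost without the TM175 pool.

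Immediate early and stress genes differed from one to the next. Junb, an immediate early transcription factor, read 114, 129 and 93.1 in the pools and 46.1 to 72.5 in the single hearts (1.05 ± 0.13, adjusted p = 0.000176). Klf4, another, was higher by 0.64, whereas Fos read 41.9, 60.9 and 35.4 in the pools and 46.3 to 77.8 in the single hearts (-0.29, adjusted p = 0.18) and Egr1 gave 0.30 (adjusted p = 0.0881). The immediate early list had 4 of 29 higher and 3 lower (median 0.04). Glucocorticoid targets had 3 of 17 higher and none lower (median 0.16, and 0.05 without TM175 single heart 1), with Sgk1, a kinase induced by corticosteroids, at 0.72 ± 0.14. Heat shock (1 of 21 higher), ER folding (none of 26) and circadian genes (2 of 17 higher) had medians of 0.02, -0.03 and 0.05. Dbp, Nr1d1 and Arntl, a set of clock genes that peak at different times of day, did not pass (0.26, 0.12 and 0.11, adjusted p = 0.256, 0.583 and 0.545). Among interferon response genes 1 of 30 was lower (median -0.13), and the median was 0.04 without the NTG pool.

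Nppa, Nppb, Myh7, Acta1 and Postn, markers of hypertrophy with 1 probe set of their own each, were not called between pooled and single extracts. Nppa, the atrial natriuretic peptide that ventricles re-express under load, read 906 and 635 in NTG hearts and 655 in the NTG pool. It read 5991, 8703 and 9127 in TM180 hearts and 7788 in the TM180 pool, and 521 and 5478 in TM175 hearts and 3822 in their pool. Every pool lay between the hearts of its genotype. Pooled against single extracts gave 0.31 ± 0.53 (1.24-fold, interval 0.557 to 2.75, adjusted p = 0.701), and TM180 against NTG in the same model gave 3.46 (adjusted p = 0.0116). Myh7, the slow myosin heavy chain of the fetal ventricle, read 325 in the NTG pool against 342 and 350, and 3813 in the TM180 pool against 2577 to 3922. In TM175 the hearts read 6319 and 2529 and the pool 5063. The extract difference of Myh7 was 0.18 ± 0.22 (1.13-fold, 0.81 to 1.59, adjusted p = 0.582). Its TM180 difference was 3.30 (adjusted p = 0.000157) and its TM175 difference 3.67 (adjusted p = 0.000192). Postn, the matrix protein periostin, gave 0.25 ± 0.14 for the extract (1.19-fold, 0.971 to 1.46, adjusted p = 0.194) and 2.36 for TM180 (adjusted p = 4.66e-05). Nppb and Acta1, the brain natriuretic peptide and skeletal actin, gave 0.34 and 0.31 for the extract and did not pass (adjusted p = 0.539 and 0.6). They did not pass for TM180 either, at 1.16 and 1.19 (adjusted p = 0.206 and 0.228).

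Tpm1 encodes alpha-tropomyosin, and whether its probe sets separate transgene from endogenous message was not tested. Its brightest probe set read 15430, 15590 and 11240 in the pools and 12400 to 17350 in the single hearts. The extract difference there was -0.13 ± 0.07 (adjusted p = 0.208) beside 0.42 in TM180 (adjusted p = 0.0169). Of its 2 dim probe sets 1 was called higher, with 220, 142 and 113 in the pools and 41.5 to 69.4 in the single hearts (1.35 ± 0.14, adjusted p = 4.76e-05), and the other was not (0.09, adjusted p = 0.694). Of 15 hypertrophy and fetal genes 1 was higher in pools and 1 lower. The higher one was Tgfb2, a growth factor, which read 166, 380 and 82.9 against 59.6 to 128 (1.22 ± 0.22, adjusted p = 0.00286), with the NTG pool inside the range of the single hearts. The lower one was Tnni1, the fetal troponin I, which read 33.2, 33.2 and 34.1 against 41.6 to 58.8 (-0.53 ± 0.10). The list's median was 0.18, and -0.05 without TM175 single heart 1. In TM180 against NTG 3 of the 15 were higher and none lower, with a median of 1.01, and 454 of 22626 probe sets (2.01%) were called in that comparison. Both comparisons come from the same 10 arrays and the same model, so their values are given side by side only.

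**Figure D5:**
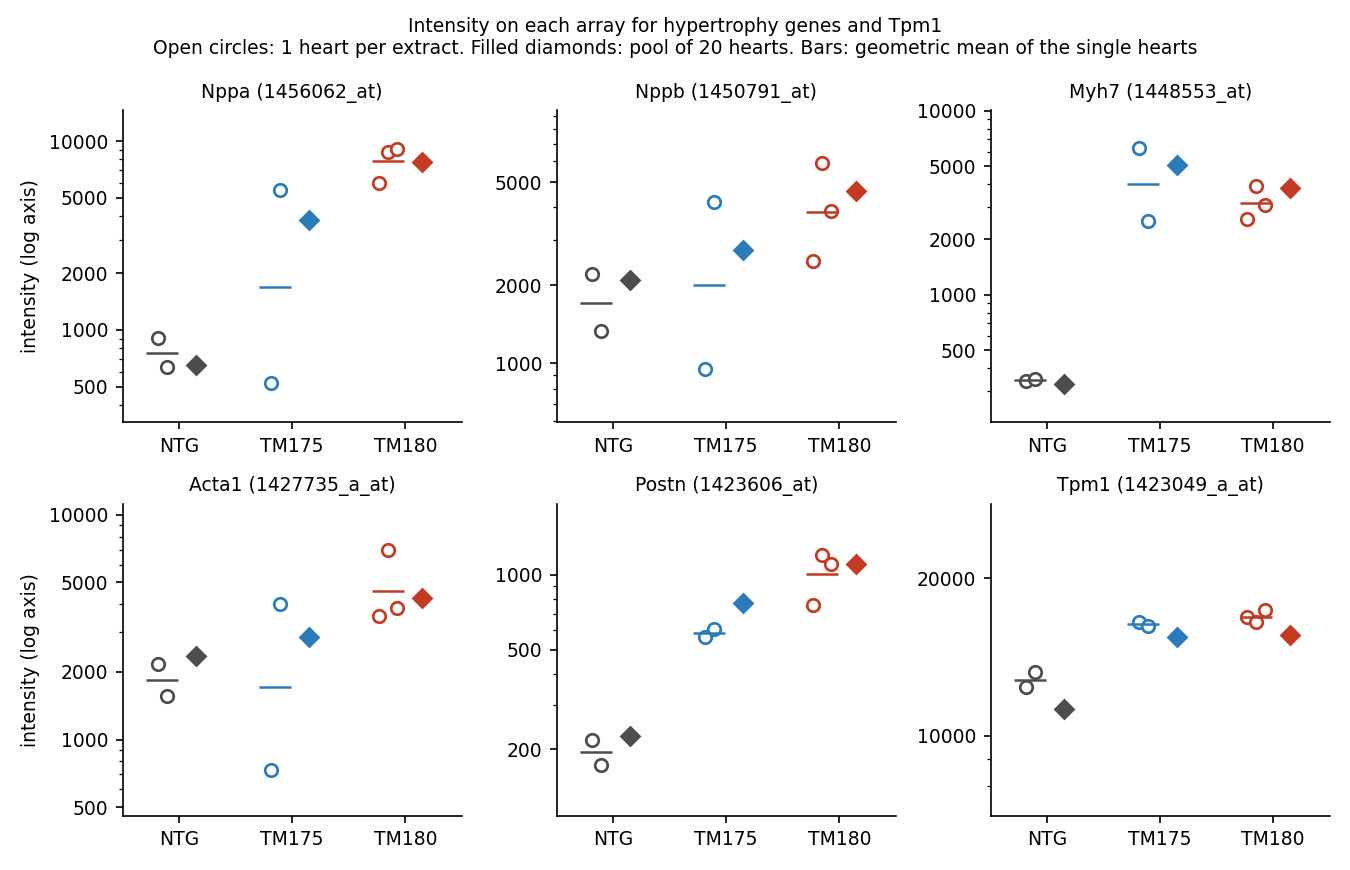
Intensity on each of the 10 arrays (vertical log axis) for Nppa, Nppb, Myh7, Acta1, Postn and the brightest Tpm1 probe set by genotype. Open circles are single hearts, filled diamonds are pools of 20 hearts, and bars are geometric means of the single hearts. For Nppa, Myh7 and Postn the 3 pools take the same order as the geometric means of the single hearts.

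Probe sets with large rises also varied more from heart to heart than probe sets in general. The SD between single hearts of 1 genotype had a median of 0.135 over all probe sets (log2, pooled over genotypes), 0.153 in those called higher, 0.139 in those called lower and 0.191 in the 374 at least 2-fold higher. In the latter the median difference of each pool from its own genotype's hearts ran from 1.34 in NTG to 1.57 in TM180. These 374 had been selected by their mean over the same arrays, so these medians are a description.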

How the data were processed

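Probe set intensities deposited by the authors were used. They are linear values made with RMA, per the submitters' processing notes, a method of background correction, quantile normalization and probe summary, so that differences are relative to the rest of each array. Values from 1000 up carried a point before the last 3 digits, undone here from the digits of each value: 7844 of 226900 values in 1057 probe sets. In 225 tested probe sets this could not be decided, which leaves log2 differences within them as written. Log2 intensities of 22626 probe sets (64 controls apart) were fitted with limma 3.58.1 in R 4.3.3 with genotype and extract as additive terms over all 10 arrays, leaving 6 residual degrees of freedom, with Benjamini-Hochberg adjustment of p-values. The script was tested on simulated data. The number of arrays limits the precision. Single-symbol probe sets numbered 20380, with 691 carrying several symbols and 1555 none. Named genes are the 12 largest non-overlapping rises and falls among called probe sets (1 per gene, that with the smallest p), up to 4 called members per list by smallest p, and a fixed set of heart, sex, clock and blood genes; of that set Hbb-b1 had no probe set of its own. Other genes with several probe sets were chosen after their values were seen. Members and lists were chosen with earlier results of these data known. Python 3.11.15 with pandas 2.3.3 and matplotlib 3.10.9 served for repair and plots. Alternatives were other normalizations and filters, no genotype term, array weights, replicate number as a block and leaving out each array.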

Additional observations from a re-analysis of the deposited data

Results flagged for a closer look

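In 58 probe sets (named genes and mouse controls) the 7 single hearts were searched for 1 array far from the rest, by the gap to the nearest array as a share of the group's range; a share above 0.568 is expected by chance in about 1 of 20 such groups, and 8 passed. TM175 single heart 1 stood apart in 3: Xist (share 0.863, 988 against 99.5 to 136), Eif2s3y (0.856, 7.23 against 44.7 to 60.8) and the Gapdh 3′ control (0.782, 5088 against 5890 to 6136). NTG single heart 1 was lowest for Bzw2 (0.719, 121 against 202 to 248) and highest for the middle 18S control (0.587, 17.4 against 13.1 to 14.7). TM180 single heart 3 was lowest for the rising Rgs5 probe set (0.584, 52.4 against 91.8 to 137) and for the second middle pyruvate carboxylase control (0.577, 46.5 against 53.7 to 59.8). TM180 single heart 1 was highest for Hnrnpl (0.617, 307 against 211 to 243).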

How the results depend on the processing

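The count of 5013 called probe sets stayed within 1.5 times under renewed quantile normalization (4914), median centring (4813), intensity trend with robust fitting (5192), array weights (6627), the mean of within-genotype differences (4163) and without repaired probe sets (5025). It was 1926 among probe sets above the median level, 2578 without genotype in the model, 2448 with 1 probe set per gene, 1823 at an adjusted p under 0.01 and 1065 with a fold of at least 1.5. With each array left out it ranged from 2049 to 6791. With replicate number as a block (replicate block) it was 340 (327 higher, 13 lower). Deviations from the group mean correlated at -0.33 to 0.289 between same-numbered single hearts and at -0.349 to 0.349 between differently numbered ones. TM175 single heart 1, TM180 single heart 3 and NTG single heart 2 correlated at 0.286 to 0.349 with each other. In TM175 and in NTG the deviations of the 2 single hearts mirror each other. These correlations therefore cannot decide whether replicate number marks a block. TM180 single heart 3 is the only single heart that shares its number with a pool. The interaction count was 0, 1 with intensity trend and robust fitting, and 0 to 2 with a single heart left out. The 3′ minus 5′ difference ranged from 0.0866 to 0.176 for Actb and from -0.146 to -0.00676 for Gapdh with each array left out. No named value that had been called changed direction. List medians changed sign in 55 of 672 alternative values, among them the hypertrophy list (0.18 to -0.05 without TM175 single heart 1) and interferon response genes (-0.13 to 0.04 without the NTG pool). Reliance on 1 pool per genotype limits every count. The falls in lists of genes that heart muscle hardly expresses were read at low intensities, whose part in them was not tested.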
